A study of Homo sapiens with 6 samples.

Results

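The genes examined here form one block near the end of the long arm of chromosome 10 (band q26.3): KNDC1, ADAM8, TUBGCP2, ZNF511, CALY, PRAP1, FUOM, ECHS1, PAOX and MTG1, in order towards the chromosome end. They are 10 of the 26485 gene symbols in the count files, and all 10 were found there by symbol. They were selected on the comparison described below, because several of them were lower with sgRNA #2, so their values in that comparison are given as a description. The cut-offs used for all genes serve below only to label them as called or not, and no p-value of theirs is given as evidence. The RNA came from A549, a line of human lung adenocarcinoma that lacks NKX2-1, the transcription factor of lung epithelium. The cells of both groups carried lentiviral dCas9-KRAB, in which nuclease-dead Cas9 is joined to the repressor domain KRAB, kept by selection in 10 ug/ml puromycin, together with rat Nkx2-1, kept by GFP sorting. In 3 libraries the cells had been transiently transfected with synthetic sgRNA #2, which directs dCas9-KRAB to the first intron of SFTPB (the gene of surfactant protein B, on chromosome 2), and in 3 with the non-targeted sgRNA control. The study calls its triplicates biologically independent, while the labels name a single transduced line for both groups, so p-values cover the spread between these libraries only. As the assay is bulk RNA-seq, fewer cells expressing a gene and less RNA per cell cannot be told apart.

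As background, the block holds genes with unrelated roles. ECHS1 encodes short-chain enoyl-CoA hydratase, a mitochondrial enzyme of fatty acid β-oxidation and of valine breakdown, and FUOM encodes fucose mutarotase, which interconverts the ring forms of L-fucose. TUBGCP2 is a core subunit of the γ-tubulin ring complex, which nucleates microtubules, and ZNF511 is a zinc finger protein. ADAM8 is a membrane-bound metalloprotease, PAOX oxidises acetylated polyamines in peroxisomes, and MTG1 is a GTPase that takes part in mitochondrial ribosome assembly. CALY and KNDC1 are best known from neurons, and PRAP1 encodes a secreted proline-rich protein of gut and liver. CRISPR interference with dCas9-KRAB acts where the guide pairs with DNA next to an NGG motif, the PAM, and the bases of the guide next to the PAM count most for pairing.

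The labels were first checked on the targeted gene and on cell markers. SFTPB had 2683, 2877 and 3155 counts with the sgRNA control and 40, 42 and 49 with sgRNA #2, a log2 fold change of -5.96 (SE 0.101). Reads counted on genes ranged from 6047554 to 7584611 per library. Of 8 epithelial markers, 7 had a mean of 1 CPM or more in the controls (CPM, counts scaled to library size with edgeR's TMM factors), with a summed level of 3614 to 4581 CPM in the controls and 3407 to 4192 CPM with sgRNA #2. KRT7, KRT8 and KRT18 made up most of that sum. All 7 tested epithelial markers had log2 fold changes below 0 (-0.61 to -0.04), and the groups stood apart in CDH1, the E-cadherin gene (-0.34, SE 0.0669, adjusted p = 0.00728 in edgeR), and in MUC1, a mucin (-0.61, SE 0.164, adjusted p = 0.0576 in edgeR). What part this has in the results below was not tested. Of 10 blood, endothelial and fibroblast markers, 4 were at 0 in all 6 libraries (PTPRC, CD3E, CDH5 and DCN). The summed level of the 10 was 8.28 to 9.71 CPM in the controls and 6.33 to 10.1 CPM with sgRNA #2. Most of that sum was COL1A1, a collagen gene, with a mean of 7.20 CPM in the controls and 7.56 CPM with sgRNA #2.

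The sgRNA #2 target is shown first because stretches of the block that share its PAM-proximal bases are described against it. It matches the genome exactly at 1 site, chr2:85668529-85668551 on the minus strand of GRCh38 (hg38). The capitals mark the 10 PAM-proximal bases, and the last 3 bases are the PAM.
sgRNA #2 target: gggatgggagGGGAACACCCagg
Within 500 kb of the ECHS1 start, 5 sites on either strand held at least the 8 PAM-proximal bases followed by NGG, and 2 of them lay in intron 1 of ECHS1 (chr10:133370758-133373245, 2488 bp, in a canonical transcript of 8 exons). They are printed 5′ to 3′ on their own strand, with the matched PAM-proximal bases in capitals.
ADGRA1 intron, chr10:133104399-133104421, plus strand: ctggcagccgtGGAACACCCcgg
KNDC1 intron, chr10:133207696-133207718, plus strand: ctcaccgagtcaGAACACCCggg
ECHS1 intron 1, chr10:133371542-133371564, minus strand: ttaatgctgcaGGAACACCCagg
ECHS1 intron 1, chr10:133372533-133372555, plus strand: ttagagccgaGGGAACACCCcgg
intron of ENSG00000288107, chr10:133618563-133618585, minus strand: aaaagcagcagtGAACACCCagg

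The longest of these matches, with 10 PAM-proximal bases, lay 810 bp inside ECHS1, counted from its start site. It differed from the guide at 9 of the 20 positions, counted from 1 at the guide's 5′ end: G1T, G2T, G3A, A4G, T5A, G7C, G8C, A9G and G10A. The other site of the same intron matched over 9 bases and lay 1801 bp inside the gene, where it reaches into MIR3944, a microRNA gene hosted by the intron. Genome-wide, 266 sites held the 10 bases before NGG, and 28 of 13076 tested genes with a known position (0.214%) had one within 1000 bp of an annotated start. Of the 10 genes of the block, 1 had such a site, ECHS1. With 8 bases the genes were ECHS1 and KNDC1 (1.51% of tested genes), with 9 bases ECHS1 alone (0.482%), and with 11 or 12 bases, or with the 10 bases before NAG, none of the 10. A match is a shared stretch of letters, and binding of dCas9-KRAB at these sites was not measured here.

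Genes of the block were called where the log2 fold change in edgeR was at least 1 in size and the Benjamini-Hochberg adjusted p over all 13356 tested genes was under 0.05. Of the 10 genes, 8 had enough reads to be tested (at least 10 counts in at least 3 libraries) and 2 did not, CALY and PRAP1. With sgRNA #2, 5 of the 8 were called lower (ADAM8, TUBGCP2, ZNF511, FUOM and ECHS1) and 0 higher, while over all tested genes 0.719% were called and 0.689% were called lower. The same 5 had all 3 sgRNA #2 libraries below all 3 controls in CPM, which held for 8.83% of all tested genes. Without control replicate 2 or 3 the called genes numbered 3 (TUBGCP2, ZNF511 and ECHS1). Since the genes were chosen for this change, nothing is read from these counts. ECHS1, ADAM8, ZNF511 and TUBGCP2 kept between 26.0 and 42.3% of their control level, FUOM was under the floor of detection with sgRNA #2, and the 3 tested genes that were not called (KNDC1, PAOX and MTG1) had log2 fold changes from -0.64 to -0.12. Across the cut-off, the nearest called gene was TUBGCP2 at -1.24 and the nearest uncalled one KNDC1 at -0.64. The median log2 fold change of the 8 was -1.35, and that of all tested genes 0.0035.

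**Figure D1:**
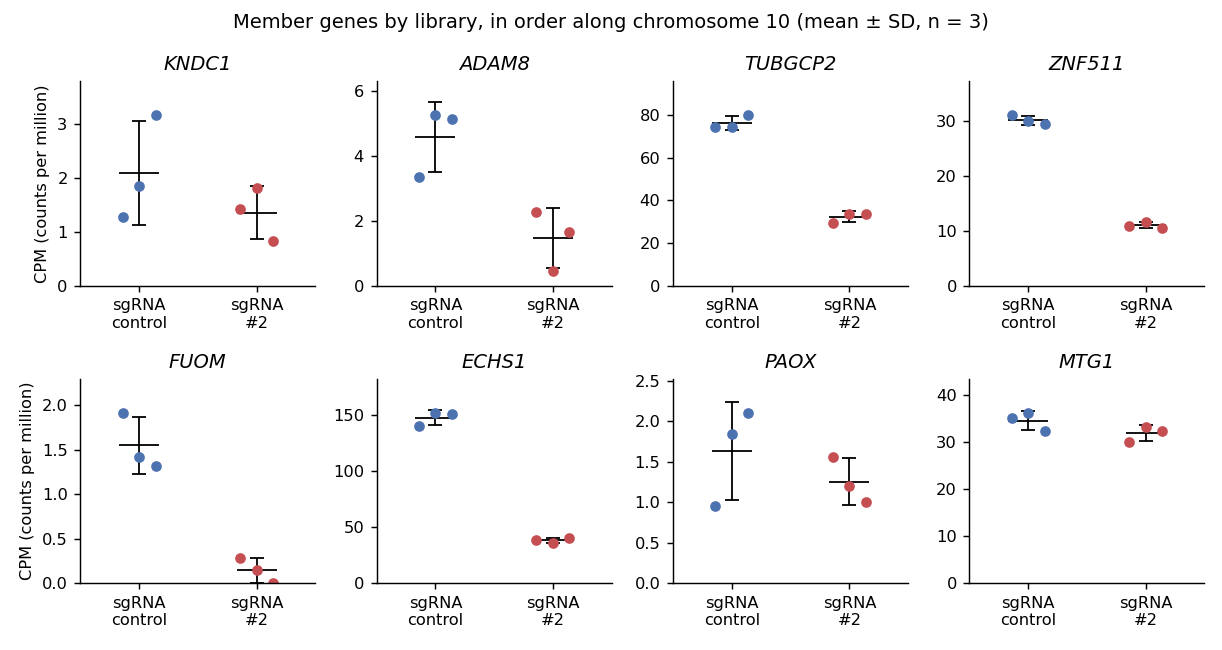
Level of the 8 tested genes in each library in CPM (y axes start at 0 and differ between genes), in order along the chromosome, with replicates 1 to 3 from left to right and black bars for the mean ± SD (n = 3). The sgRNA #2 libraries lie below all controls in ADAM8, TUBGCP2, ZNF511, FUOM and ECHS1 and overlap the controls in KNDC1, PAOX and MTG1.

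ECHS1 (ENSG00000127884.5, chr10:133362485-133373354, minus strand), the β-oxidation enzyme, had 881, 1073 and 1151 counts with the control and 269, 242 and 244 with sgRNA #2. This was 148 ± 6.58 CPM with the control and 38.4 ± 2.15 CPM with sgRNA #2 (SD, n = 3), or 26.0% of the control level. The log2 fold change was -1.95 (SE 0.0754). The groups were far apart, since the lowest control (140 CPM) stood well above the highest sgRNA #2 library (40.6 CPM), and libraries with the same replicate number gave log2 ratios of -1.87, -2.06 and -1.90. ECHS1 was the most abundant gene of the block in both groups. Its exons overlap no exon of another annotated gene.

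FUOM (ENSG00000148803.12, chr10:133355158-133358025, minus strand), the fucose mutarotase, is the next gene downstream of ECHS1 on the same strand, with 4466 bp between the end of ECHS1 and its own start. It had 12, 10 and 10 counts in the controls and 2, 1 and 0 with sgRNA #2. Its level was 1.55 ± 0.319 CPM with the control and 0.145 ± 0.142 CPM with sgRNA #2 (SD, n = 3). All sgRNA #2 libraries lay under the 3-count floor, which was 0.427 to 0.500 CPM in them, and the gene was tested only because the control libraries passed the count minimum. The fitted log2 fold change was -3.18 (SE 0.630), and the ratio of summed counts (3 against 32), corrected for library size, was 9.97% of the control with an exact 95% interval of 1.95 to 31.9%. That interval covers counting error only, and it includes the 26.0% of control at which ECHS1 stood, so the sizes of the change in FUOM and ECHS1 cannot be ordered at this depth. FUOM was not tested when any one control library was left out, and DESeq2 did not call it.

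TUBGCP2 (ENSG00000130640.15, chr10:133278635-133318823, minus strand), of the γ-tubulin ring complex, had 468, 524 and 608 counts in the controls and 206, 224 and 203 with sgRNA #2. In CPM this was 76.2 ± 3.20 against 32.3 ± 2.56 (SD, n = 3), or 42.3% of the control, with a log2 fold change of -1.24 (SE 0.0866). The groups were far apart, with 74.3 CPM in the lowest control and 33.8 CPM in the highest sgRNA #2 library.

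ZNF511 (ENSG00000198546.15, chr10:133308914-133313162, plus strand), the zinc finger gene, had 195, 211 and 224 counts in the controls and 77, 77 and 63 with sgRNA #2. Its level was 30.1 ± 0.828 CPM with the control (SD, n = 3) and 10.5 to 11.6 CPM with sgRNA #2, or 36.5% of the control in the mean, with a log2 fold change of -1.45 (SE 0.117). The 95% interval of ZNF511 (-1.70 to -1.20) overlapped that of TUBGCP2 (-1.43 to -1.06). The groups did not overlap in either gene, and each replicate pair gave a similar size: log2 ratios of -1.50, -1.37 and -1.49 for ZNF511 and of -1.35, -1.14 and -1.24 for TUBGCP2.

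By their canonical transcripts, TUBGCP2 and ZNF511 start 42 bp apart and run in opposite directions, so these start regions are one stretch of DNA. The 41 bases between the start sites of their canonical transcripts (chr10:133308873-133308913, plus strand, hg38) hold 8 CpG dinucleotides and are 75.6% G or C. They are shown because both genes were lower together, with the motif TGACGTCA (a cAMP response element, which reads the same on both strands) in capitals.
between TUBGCP2 and ZNF511: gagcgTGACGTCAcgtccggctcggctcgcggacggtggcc
The motif was looked for after the sequence had been seen. It occurs in 649 of 35116 promoter windows of RefSeq (GRCh38.p14, 250 bases before to 50 after a start), which is 1.85%, and in 2 of the 9 windows of the block, those of TUBGCP2 and ZNF511. These 2 windows overlap and share the occurrence printed above, so they are not separate cases. A second window of TUBGCP2 (chr10:133312288-133312587) lies apart from them, so the start shared with ZNF511 is not the only one listed for TUBGCP2. The exons of the pair overlap on opposite strands over 805 bp, and the strand setting of the counting is not given in the sources used here, so part of the reads of each gene may belong to the other.

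ADAM8 (ENSG00000151651.16, chr10:133262420-133276868, minus strand), the metalloprotease, was the called gene farthest from ECHS1 and had few reads. It had 21, 37 and 39 counts in the controls and 16, 3 and 10 with sgRNA #2. In CPM this was 4.57 ± 1.06 against 1.46 ± 0.929 (SD, n = 3), with a log2 fold change of -1.64 (SE 0.369). The groups stood apart by a small margin, with 3.34 CPM in the lowest control and 2.28 CPM in the highest sgRNA #2 library. The ratio of summed counts (29 against 97) was 31.8% of the control with an exact 95% interval of 20.2 to 48.6%, from counting error only. The spread between libraries was wider than that, as the replicate pairs gave log2 ratios of -0.56, -3.54 and -1.62. Without the sgRNA #2 library of replicate 2 the log2 fold change was -1.21 and ADAM8 was no longer called, nor was it called without control replicate 2 or 3.

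The 3 tested genes outside that stretch lay on either side of it. MTG1 (ENSG00000148824.19, chr10:133394094-133422520, plus strand), of mitochondrial ribosome assembly, had 220, 255 and 246 counts in the controls and 210, 221 and 194 with sgRNA #2. Its level was 34.5 ± 1.95 CPM against 31.8 ± 1.72 CPM (SD, n = 3), and its log2 fold change -0.12 (SE 0.0971) had a 95% interval of -0.32 to 0.09. The groups overlapped, and the interval holds no change as large as that of any called gene. Exons of MTG1 overlap those of SPRN on the opposite strand over 1855 bp. They also overlap those of the annotated gene ENSG00000254536 on the same strand over 1184 bp, as exons of PAOX do over 1373 bp. Part of the reads of MTG1 may therefore be lost or belong to another gene.

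PAOX (ENSG00000148832.16, chr10:133379261-133391694, plus strand), the polyamine oxidase, runs the other way from ECHS1. Among the genes of the block, it has the start site nearest to that of ECHS1, 5908 bp away. PAOX had 6, 13 and 16 counts in the controls and 11, 8 and 6 with sgRNA #2, or 1.63 ± 0.602 CPM against 1.26 ± 0.286 CPM (SD, n = 3). Its log2 fold change was -0.39 (SE 0.391) with a 95% interval of -1.21 to 0.44. The groups overlapped, one pair was higher with sgRNA #2 (log2 ratio 0.71) and the others lower (-0.62 and -1.07), and at this depth a change as large as 2-fold was within the interval.

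KNDC1 (ENSG00000171798.19, chr10:133160219-133226412, plus strand), the gene farthest towards the centromere, had 8, 13 and 24 counts in the controls and 10, 12 and 5 with sgRNA #2. Its level was 2.09 ± 0.965 CPM against 1.35 ± 0.488 CPM (SD, n = 3), with a log2 fold change of -0.64 (SE 0.401, 95% interval -1.48 to 0.21). The groups overlapped, and the replicate pairs gave log2 ratios of 0.16, -0.03 and -1.92, so the difference came mostly from replicate 3. Over the uncalled tested genes KNDC1, PAOX and MTG1, 0 had an unadjusted p under 0.05 in edgeR and 0 were called by DESeq2. Nothing is read from these counts, since the share of all tested genes with such a p was not counted and KNDC1 and PAOX had few reads.

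CALY (ENSG00000130643.9, chr10:133324072-133336935, minus strand), the neuronal gene, had 0 counts in every control and 0, 3 and 0 with sgRNA #2. PRAP1 (ENSG00000165828.15, chr10:133347368-133352683, plus strand) had 0 counts in all 6 libraries. A count of 0 allows up to 3 counts, which was 0.394 to 0.500 CPM in these libraries, so a fall in these 2 genes could not have been detected at this depth. Both lie inside the stretch bounded by called genes, between ZNF511 and FUOM.

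By position, the called genes were neighbours. From ADAM8 to ECHS1 they spanned 96.486 kb between start sites, and 110.934 kb from the end of ADAM8 to the start of ECHS1, with no tested gene between them that was not called. ECHS1 itself had a log2 fold change of -1.95 (SE 0.0754). Measured from the ECHS1 start, FUOM at 15.3 kb had -3.18 and ZNF511 at 64.4 kb had -1.45. TUBGCP2 at 64.5 kb had -1.24 and ADAM8 at 96.5 kb had -1.64. Among the genes with narrow SEs, ZNF511 and TUBGCP2, which start side by side, had smaller changes than ECHS1. The fitted values of FUOM and ADAM8 broke a steady decline with distance. Their SEs were wide, and their intervals (-4.51 to -1.85 and -2.41 to -0.86) also allow such a decline. Whether the change shrinks with distance therefore cannot be decided from these genes. The next tested gene beyond ADAM8 was KNDC1, whose start lies 116.649 kb farther and whose body ends 36.008 kb from that of ADAM8. On the other side, PAOX at 5.91 kb was not called, but its interval includes a 2-fold fall, and the first gene whose interval excludes one was MTG1 at 20.8 kb, so the data do not place the end of the stretch at PAOX. The interval of KNDC1 likewise includes a 2-fold fall. The end of chromosome 10 lies 424.068 kb beyond the ECHS1 start.

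**Figure D2:**
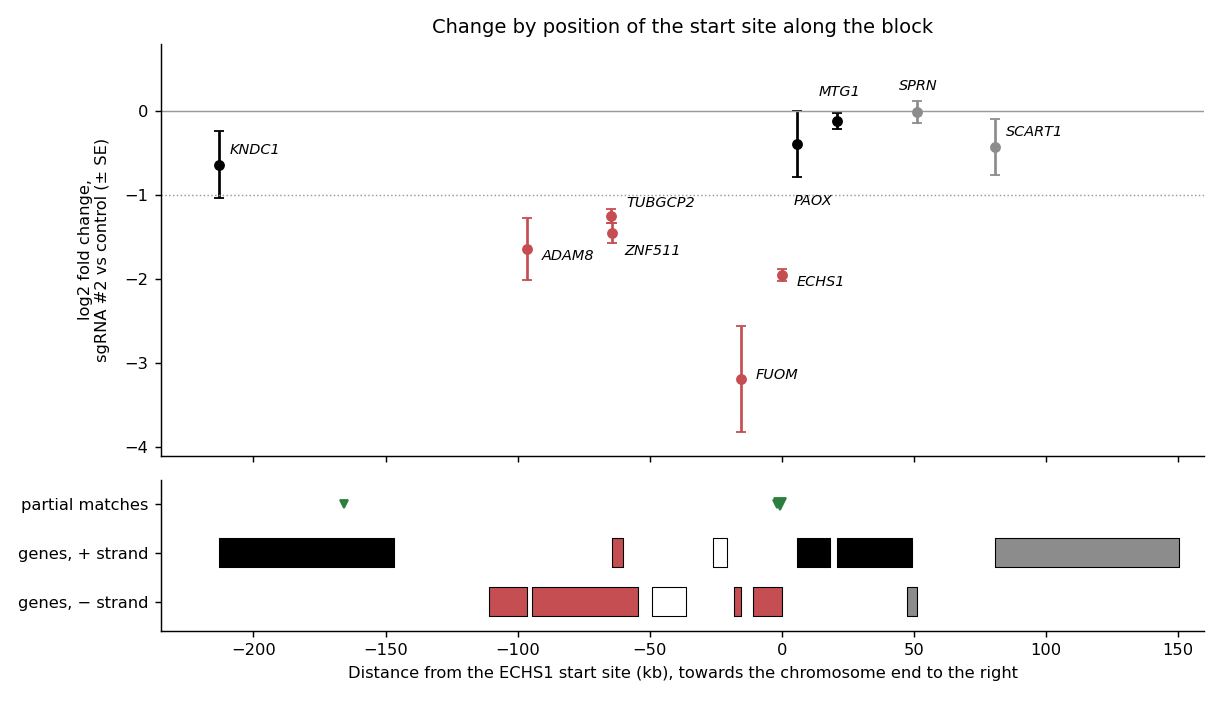
Log2 fold change with sgRNA #2 against the control (± SE) by distance of the start site from that of ECHS1 in kb, with the chromosome end to the right; red genes were called lower, black genes of the block were not, and grey genes are the other tested genes within 500 kb. Below, gene bodies by strand (white, not tested) and partial matches of the guide of at least 8 bases (triangles, the large one with 10 bases, 2 of them overlapping near 0). The red points run from ADAM8 to ECHS1, and the genes right of ECHS1 lie between -0.43 and -0.01.

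Besides the genes of the block, 16 other genes with a start within 500 kb of that of ECHS1 were in the files, and these were not used to choose the block. Some of them lie within its span: UTF1, VENTX, MIR202HG and MIR202 between KNDC1 and ADAM8, all at 0 counts, and MIR3944 inside ECHS1. Of the 16, 10 had 0 counts in every library, 4 had too few reads to be tested (CFAP46, LINC01166, MIR3944 and CYP2E1), and 2 were tested, both towards the chromosome end. SPRN, which encodes the prion-related protein shadoo, had 87, 106 and 131 counts in the controls and 107, 103 and 92 with sgRNA #2, with a log2 fold change of -0.01 (SE 0.132, 95% interval -0.29 to 0.27, adjusted p = 0.992 in edgeR). SCART1, of the scavenger receptor family, had 11, 20 and 18 counts against 9, 12 and 13, with a log2 fold change of -0.43 (SE 0.332, 95% interval -1.13 to 0.27, adjusted p = 0.725 in edgeR). Neither was called by edgeR or DESeq2, 0 of the 2 had an unadjusted p under 0.05, and in both the groups overlapped. SPRN and MTG1 overlap on opposite strands over 1855 bp of exon, so reads there cannot be assigned without strand. Of 533 other tested genes on chromosome 10, 1 was called lower and 0 higher, and that gene, SNCG (γ-synuclein, log2 fold change -1.63, SE 0.306, adjusted p = 0.00483 in edgeR), starts 46.4 Mb from ECHS1.

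The levels of the genes differed widely and can be compared with each other per length only, in CPM per kb of the canonical transcript. In the controls the order of levels was ECHS1 (116 ± 5.15), ZNF511 (27.8 ± 0.763), TUBGCP2 (19.4 ± 0.816), MTG1 (10.1 ± 0.570), FUOM (2.25 ± 0.463), ADAM8 (1.40 ± 0.327), PAOX (0.893 ± 0.329), KNDC1 (0.298 ± 0.137), then CALY and PRAP1 at 0 (mean ± SD, n = 3). Of neighbours in this order, only ADAM8 and PAOX overlapped (1.03 to 1.61 and 0.522 to 1.15 CPM per kb), among those above 0. With sgRNA #2 the order was ECHS1 (30.1 ± 1.69), ZNF511 (10.2 ± 0.495), MTG1 (9.29 ± 0.502), TUBGCP2 (8.21 ± 0.651), PAOX (0.686 ± 0.157), ADAM8 (0.449 ± 0.285), FUOM (0.210 ± 0.207), KNDC1 (0.193 ± 0.0696) and CALY (0.0665). MTG1 thus stood above TUBGCP2, and PAOX above ADAM8 and FUOM, in mean level. In that group ZNF511 and MTG1 overlapped at their edges (9.68 to 10.7 and 8.72 to 9.69 CPM per kb), as did each pair of neighbours from PAOX down to CALY, while MTG1 stayed above TUBGCP2 (7.46 to 8.61) in every library. This order depends on the length used. Per kb of all annotated exons, MTG1 already stood above TUBGCP2 in the controls (6.50 and 5.39 CPM per kb).

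The start regions of the block were rich in CpG. RefSeq gave promoter windows for 8 of the 10 genes (PAOX and PRAP1 have no entry there), and 9 windows in all, since TUBGCP2 has a pair of them. The windows were 69.0 to 81.3% G or C with 26 to 47 CpG, apart from the second window of TUBGCP2 (52.3% and 9 CpG), against medians of 58.7% and 14 CpG over all 35116 windows. This held for called genes such as ECHS1 (78.0%, 36 CpG) and for uncalled ones such as MTG1 (69.0%, 36 CpG) and KNDC1 (81.3%, 37 CpG). The 150 bases before the starts of ECHS1 (chr10:133373355-133373504) and FUOM (chr10:133358020-133358169) are shown on the minus strand of hg38, with CG in capitals, because ECHS1 and FUOM are neighbours on one strand that were both called lower.
ECHS1 upstream: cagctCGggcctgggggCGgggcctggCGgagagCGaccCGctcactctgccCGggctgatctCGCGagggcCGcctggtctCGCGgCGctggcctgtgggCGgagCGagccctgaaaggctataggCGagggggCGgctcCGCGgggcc
FUOM upstream: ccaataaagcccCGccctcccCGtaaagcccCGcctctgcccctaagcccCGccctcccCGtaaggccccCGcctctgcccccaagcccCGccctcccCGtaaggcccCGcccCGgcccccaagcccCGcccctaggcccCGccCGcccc
The ECHS1 stretch holds 18 CpG and the FUOM stretch 13, the latter in short units that repeat. The 10 PAM-proximal bases of the guide before NGG, on either strand, were in 3 of the 35116 windows (0.00854%) and in 0 of the 9 windows of the block, since the ECHS1 site lies farther inside the gene.

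Neighbouring genes called lower also occurred elsewhere. How many such runs would arise among unlinked genes was not worked out, so their number is given as a description. Among the 92 genes called lower, 3 runs of neighbouring tested genes occurred: the 5 genes from ADAM8 to ECHS1, LCAT and SLC12A4 on chromosome 16 (starts 24.517 kb apart), and NEIL2 and FDFT1 on chromosome 8 (33.031 kb). Around SFTPB, the intended target with the largest change of the genes compared here, 0 of the 10 nearest tested genes (5 on each side) were called by edgeR or DESeq2. Their log2 fold changes ran from -0.77 (VAMP8, SE 0.337, adjusted p = 0.378 in edgeR) to 0.30, and 1 of them, VAMP8, had an unadjusted p under 0.05. Around BOK, a cell death gene on chromosome 2 with a log2 fold change of -4.65 (SE 0.139), 0 of the 10 nearest tested genes were called by either tool. Their values ran from -0.45 (FARP2, SE 0.137, adjusted p = 0.115 in edgeR) to 0.02, and 1, FARP2, had an unadjusted p under 0.05. Around ECHS1, 4 of 9 such genes were called lower, with values from -3.18 to -0.01, only 4 tested genes being left on the side of the chromosome end. The distances behind these ranks differed between the loci (negative towards lower coordinates). The nearest tested start was at -52.0 kb from SFTPB and -50.2 kb from BOK, and the farthest at 468 and -408 kb. The called neighbours of ECHS1 started 15.3 to 96.5 kb from it, so the loci are not matched by distance. The difference between the loci was not tested, since the block was chosen for its run of changes.

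**Figure D3:**
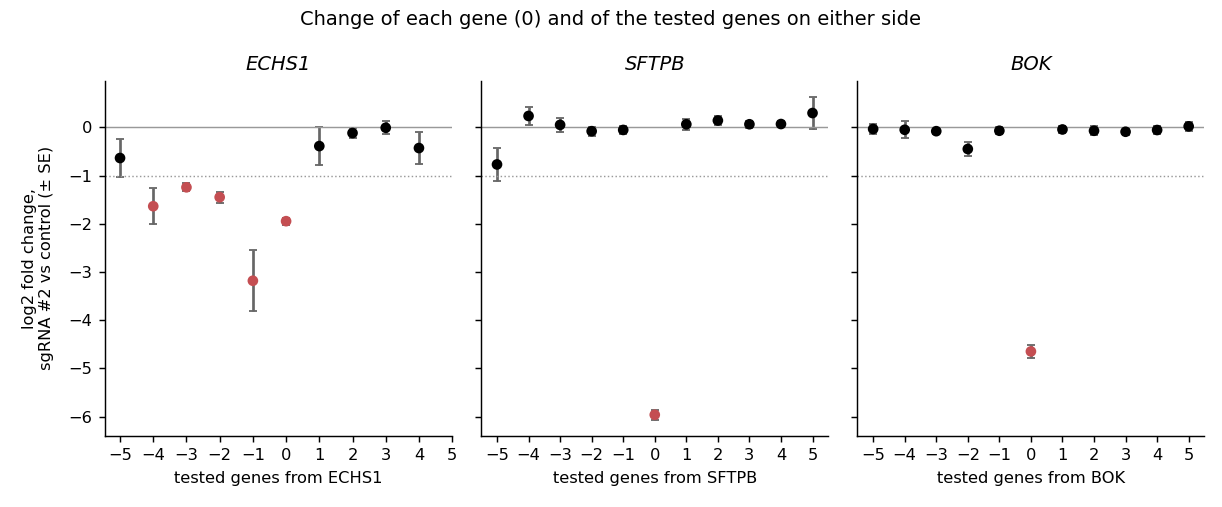
Log2 fold change with sgRNA #2 against the control (± SE) for ECHS1, SFTPB and BOK (position 0) and up to 5 tested genes on each side in chromosome order; red points were called lower and the dotted line marks -1. Called neighbours appear beside ECHS1 on one side only, and the neighbours of SFTPB and BOK lie between -0.77 and 0.30. Positions are ranks, and the distances they stand for differ between the loci.

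The genes of the block were set beside others of their pathways. In 7 lists with 120 genes in all, 111 were tested, of which 1 was called lower and 0 higher, against 0.719% of all tested genes, and 9 had an unadjusted p under 0.05. The share of all tested genes with such a p was not counted. Nothing is therefore read from the counts of unadjusted p, here, above or in the single lists below. DESeq2 called the same number, 1. The called gene was BCKDHB, a subunit of the branched-chain ketoacid dehydrogenase, which lies on another chromosome. It had 138, 138 and 221 counts in the controls and 56, 68 and 62 with sgRNA #2, or 23.5 ± 4.94 CPM against 9.50 ± 1.33 CPM (SD, n = 3), with a log2 fold change of -1.32 (SE 0.166, adjusted p = 7.60e-05 in edgeR). The sgRNA #2 libraries lay below all the controls.

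For the roles of ECHS1, the other genes of mitochondrial fatty acid oxidation (21 tested of 22) had a median log2 fold change of -0.04, with 0 called by edgeR or DESeq2 and 1 with an unadjusted p under 0.05. The largest differences there were -0.43 in ETFDH, which passes electrons to the respiratory chain (SE 0.151, adjusted p = 0.216 in edgeR), and -0.20 in ACADS, the short-chain acyl-CoA dehydrogenase. The other genes of branched-chain amino acid breakdown (22 of 22 tested) had a median of 0.01, and 2 of them, BCKDHB and BCAT1, had an unadjusted p under 0.05. After BCKDHB the widest values were -0.27 in PCCA, of propionyl-CoA carboxylase (adjusted p = 0.843 in edgeR), and 0.26 in BCAT1, the cytosolic aminotransferase (SE 0.0791, adjusted p = 0.116 in edgeR).

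For FUOM, the genes of fucose activation, transfer and release (14 tested of 18) had a median of -0.06, with 0 called by either tool and 0 with an unadjusted p under 0.05. The widest values were -0.24 in GMDS, of GDP-fucose synthesis (adjusted p = 0.773 in edgeR), and -0.18 in FUCA1, the lysosomal fucosidase. For TUBGCP2, the γ-tubulin ring complex genes (13 of 13 tested) had a median of 0.01, with 0 called by either tool and 2 with an unadjusted p under 0.05, TUBGCP3 at -0.39 (SE 0.116, adjusted p = 0.105 in edgeR) and AKAP9. MZT1, a small subunit of the complex, was at 0.25.

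For PAOX, the genes of polyamine metabolism (18 of 18 tested) had a median of 0.04, with 0 called by either tool and 2 with an unadjusted p under 0.05, SAT1 and AGMAT. The widest values were 0.55 in OAZ3 (SE 0.445, adjusted p = 0.741 in edgeR) and -0.40 in AGMAT (SE 0.117, adjusted p = 0.0968 in edgeR). For MTG1, the genes of mitochondrial ribosome assembly (15 of 15 tested) had a median of 0.05, with 0 called by either tool and 1, NSUN4, with an unadjusted p under 0.05 (log2 fold change 0.26, SE 0.0790, adjusted p = 0.108 in edgeR). The widest value there was 0.28 in TFB1M, an rRNA methyltransferase. For ADAM8, the membrane-bound ADAM proteases (8 tested of 12) had a median of -0.05, with 0 called by either tool and 1, ADAM19 at -0.27, with an unadjusted p under 0.05, and the next value was -0.16 in ADAM15.

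**Figure D4:**
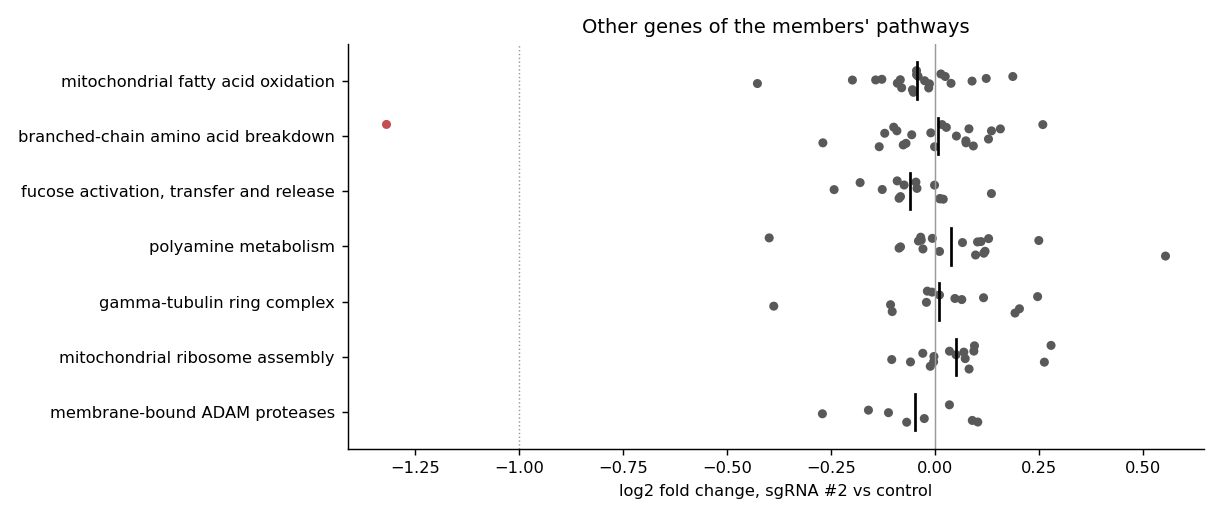
Log2 fold change with sgRNA #2 against the control for each tested gene of the 7 lists (1 point per gene, spread vertically for legibility), with the list median as a black bar, called genes in red and the cut-off of -1 dotted. The medians lie between -0.06 and 0.05, and the single red point is BCKDHB at -1.32.

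The pattern of ECHS1 over the 6 libraries was most like that of LGALS1 (Pearson's r of log2 CPM 1.00), followed by GDF5, HNF4A, SFTPB and SEL1L3, none of them on chromosome 10. These are the 5 tested genes with the highest correlation, over 6 points that fall into the groups compared, so the value rests on the gap between the groups and is given as a description. LGALS1 had 641, 759 and 870 counts in the controls and 161, 145 and 151 with sgRNA #2, with a log2 fold change of -2.22. The others ranged from -5.96 in SFTPB to -0.68 in SEL1L3, so genes of very unlike size of change followed ECHS1 closely.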

How the data were processed

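RNA-seq of 6 libraries, 3 with sgRNA #2 and 3 with the sgRNA control, was used as deposited: the authors gave raw read counts per gene symbol, 1 table per library, without normalization. The submitters' processing notes name Trim Galore, FastQC, Bowtie2 2.3.3.1, SAMtools, Picard and HTSeq and the build hg38, with no role or order. The annotation and strand setting are not given in the sources used here, and reads shared between overlapping genes can be lost or misassigned. Of the reads counted, 19.7 to 21.1% fell in no gene and 2.61 to 2.75% were ambiguous, and both were left out.

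Counts were tested in R 4.3.3 with edgeR 4.0.16 (TMM, quasi-likelihood F-test, Benjamini-Hochberg adjustment) on 13356 genes, each reaching 10 counts in 3 or more libraries. The SE is the absolute log2 fold change over the square root of F. DESeq2 1.42.0 with the same cut-offs, other scalings and filters, the replicate number as a block and leaving out each library were alternatives. Libraries with the same replicate number in the labels deviated together from their group means (correlations 0.269, 0.287 and 0.291 for the 3 numbers), so the numbers may pair the libraries. Libraries with unlike numbers were not compared in this way. The main fit, which gave the calls, SEs and intervals above, did not use the pairing. Libraries of one group differed by more than sampling noise (chi-square per degree of freedom 2.73 to 3.61).

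Positions came from GENCODE release 44 on hg38, to which 24522 symbols matched, 1361 of them by an older symbol, and 1963 did not. The guide's sequence came from a supplementary table of the study, and partial matches were searched on both strands in Python 3.11.15. The exact intervals of count ratios used scipy 1.17.1.

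The members and the pathway lists were chosen with earlier results of these data known. Named were the members, all genes with counts within 500 kb of the ECHS1 start, called genes and the 2 with the largest absolute change in each pathway list, SFTPB, the range of 5 neighbours on each side of SFTPB and BOK, and the 5 genes most correlated with ECHS1. Genes named outside this rule (VAMP8, FARP2, SNCG, UTF1, VENTX, MIR202HG, MIR202, the gene runs, CDH1, MUC1, COL1A1 and those listed for an unadjusted p) were chosen after their values were seen. One marker of the fixed list is not reported here.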

Additional observations from a re-analysis of the deposited data

How the results depend on the processing

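The 5 called genes of the block, ADAM8, TUBGCP2, ZNF511, FUOM and ECHS1, were the same with RLE size factors, with library totals only, without a count filter and by adjusted p alone. ECHS1, TUBGCP2 and ZNF511 were called in every fit. With at least 10 counts in every library 3 were called, since ADAM8 and FUOM were then not tested, and DESeq2 called 4, without FUOM. Leaving out one library gave 3 to 5 called genes, with 3 without control replicate 2 or 3 (FUOM not tested, ADAM8 not called), 4 without control replicate 1 (FUOM not tested) and 4 without sgRNA #2 replicate 2 (ADAM8 not called). With the replicate number as a block, which pairs the libraries, 5 genes of the block were called (ECHS1 at -1.94), and 122 over all genes against 96, and the block changed no call in the block of genes or in the pathway lists. Over all genes, the stricter filter gave 63 calls, adjusted p alone 359, DESeq2 82, and leaving out one library 65 to 94. In the pathway lists BCKDHB alone was called under every setting. Of 109 log2 fold changes of 10 genes under 12 alternative fits, 103 kept their direction and their side of the cut-offs, 4 fell short of them and 2 changed sign, both in SPRN, which ranged from -0.075 to 0.084 when one library was left out, with 0.084 without control replicate 3 and 0.0018 without sgRNA #2 replicate 1. The causes were not tested. ADAM8 ranged from -2.14 to -1.21 and FUOM from -3.99 to -2.71, against -1.99 to -1.91 in ECHS1. The number of genes of the block with a partial match of the guide near a start was 1 with 10 bases, 2 with 8, 1 with 9, and 0 with 11, 12 or the NAG motif. Depth limits FUOM, PAOX, KNDC1, CALY and PRAP1 most.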
